A study of Homo sapiens with 6 samples.

Results

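The genes described here are the 10 SOX genes of groups C, D, E and F that the count table was searched for: *SOX4*, *SOX11* and *SOX12* (group C), *SOX5*, *SOX6* and *SOX13* (group D), *SOX8*, *SOX9* and *SOX10* (group E) and *SOX17* (group F). They were matched by gene symbol and make up 10 of 59653 gene symbols in the table. The measurements came from PA1, an established human ovarian teratocarcinoma line whose genotype is given as wild type. Cells were transfected with a negative control siRNA (3 libraries) or with siRNA against *SOX2* (3 libraries), kept attached for 24 h and then grown for 72 h on a non-adherent surface. Both groups went through transfection and suspension culture, and the labels mention 2 *SOX2* siRNAs without saying whether they were combined. All libraries are of 1 cell line and nothing in the labels says that they came from separate cultures, so p-values measure the spread between these libraries, which may be technical.

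SOX proteins are transcription factors that bind DNA through an HMG box, a domain that bends the minor groove at a short AT-rich site. They are sorted into groups by the likeness of that domain. *SOX2*, a group B gene, holds stem cells in the pluripotent and neural progenitor states, while groups C to F are best known from later steps: C from neuronal and other progenitors, D and E from cartilage, neural crest and glia, and F from endoderm and blood vessels. Group D proteins lack an activation domain and, in cartilage, act with group E partners.

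The coding sequences of the family resemble each other most in the HMG box, and the stretches shared with *SOX2* are shown because they set how far a sequence chosen in *SOX2* could also be found in the other genes. In the GENCODE 29 transcripts the longest run of identical bases between *SOX2* and any of the 10 genes was 13 to 21 bases. The longest runs of *SOX4*, *SOX12*, *SOX5* and *SOX13* all contain the same 12 bases, in capitals, and are coding in both genes (in *SOX5* in some of its annotated transcripts only):
SOX4: gccTTCATGGTGTGGtc
SOX12: TTCATGGTGTGGtc
SOX5: atgaatgccTTCATGGTGTGG
SOX13: gccTTCATGGTGTGG
The runs of the 3 group E genes share another piece of 14 bases, again in capitals and coding in both genes:
SOX8: AAGCGGCCCATGAA
SOX9: cgtcAAGCGGCCCATGAA
SOX10: cgtcAAGCGGCCCATGAA
The siRNA sequences were not used here, so no site was looked for. Between 2 of the 10 genes the longest run was 13 to 45 bases, the highest value being that of *SOX9* and *SOX10*; the read length is not given in the sources used here.

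Total counts ranged from 25152313 to 32753184 per library, at which 3 counts, taken here as the floor of detection, correspond to 0.0909 to 0.120 CPM (counts scaled to a common effective library size). *SOX2* itself was at 245, 265 and 256 CPM in the control libraries and at 51.8, 54.9 and 50.6 CPM after *SOX2* siRNA, so it was low in each library labelled as treated against it. The other tested group B genes, *SOX21* and *SOX3*, were lower too, with log2 fold changes of -3.03 and -0.33 (edgeR, Benjamini-Hochberg adjusted p = 2.31e-11 and 0.0331). Of 10 pluripotency markers that PA1 could be expected to express, *POU5F1*, *LIN28A*, *LIN28B*, *SALL4* and *PODXL* were abundant, whereas *TDGF1* and *ZFP42* had at most 3 counts in each library. Summed over the 10 markers, the level was 2683 to 2741 CPM in control and 2643 to 2704 CPM in *SOX2* siRNA libraries. Of 8 tested, 3 rose (*LIN28A* by 0.70, *LIN28B* by 0.59 and *POU5F1* by 0.17 on the log2 scale) and 2 fell (*PODXL* at -0.97 and *NANOG* at -1.91). These calls are at an edgeR adjusted p under 0.05, which 28.2% of all tested genes passed. *NANOG* was scarce, with 28, 17 and 27 counts in control and 7, 8 and 5 after *SOX2* siRNA. In bulk RNA, fewer cells that express a gene and less RNA per cell cannot be told apart.

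After *SOX2* siRNA, 6 of the 9 tested genes rose (*SOX4*, *SOX12*, *SOX5*, *SOX8*, *SOX9* and *SOX10*), *SOX13* fell, and *SOX11* and *SOX6* did not pass the test. *SOX17* had too few counts to be tested. The increases were small in groups C and D, near 1.2-fold, and larger in group E, from 1.44-fold for *SOX9* to 2.92-fold for *SOX10*. By edgeR's quasi-likelihood test with Benjamini-Hochberg adjustment over 17592 genes, 28.2% of all tested genes were called at an adjusted p under 0.05 (14.8% higher, 13.4% lower), and the share was 34.9% where the average log2 CPM was 2 or more. The median log2 fold change was 0.29 over the 9 tested genes and -0.00085 over all tested genes. The control and *SOX2* siRNA libraries did not overlap for any of the 9, which was the case for 41.8% of all tested genes.

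**Figure D1:**
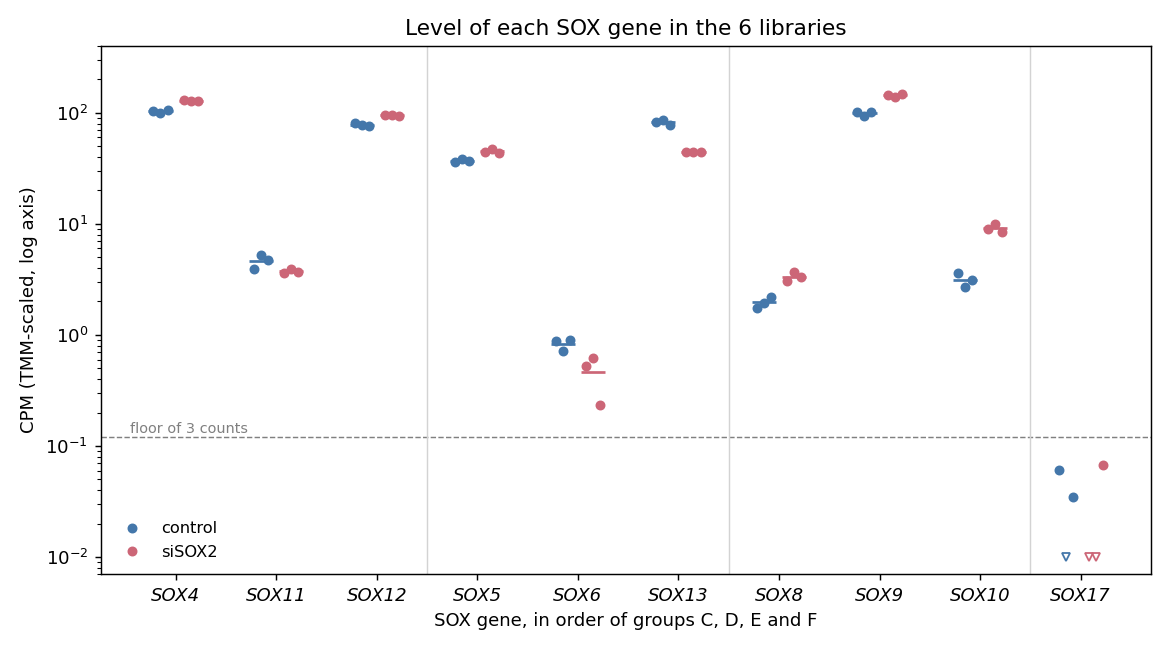
CPM of the 10 SOX genes (log axis) in each library, with 3 control (blue) and 3 *SOX2* siRNA libraries (red) per gene, short lines for the group means, open triangles for libraries at 0 counts (drawn at the foot of the axis) and a dashed line at the highest per-library floor of 3 counts. *SOX4*, *SOX12*, *SOX9*, *SOX13* and *SOX5* lie above 30 CPM, and *SOX17* lies below the floor in each of the 6 libraries.

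In group C, *SOX4* and *SOX12* rose by similar amounts, and *SOX11* pointed the other way. *SOX4*, an activator found in many progenitor cells and often abundant in tumours, had 105, 100.2 and 106 CPM in control replicates 1 to 3 and 131, 127 and 127 CPM in *SOX2* siRNA replicates 1 to 3. Its lowest siRNA library lay well above its highest control library, and the log2 fold change was 0.31 (SE 0.0382; edgeR, Benjamini-Hochberg adjusted p = 8.88e-06). *SOX12*, the weakest activator of the group, had 80.9, 77.6 and 75.7 CPM in control and 95.6, 95.6 and 92.8 CPM after *SOX2* siRNA. Again the groups were apart, by a log2 fold change of 0.28 (SE 0.0403; edgeR adjusted p = 4.82e-05). *SOX11*, which with *SOX4* supports neuronal differentiation and progenitor survival, was scarce, at 3.94, 5.23 and 4.70 CPM in control and 3.58, 3.93 and 3.68 CPM after *SOX2* siRNA. The highest siRNA library was just under the lowest control library, and the log2 fold change of -0.30 (SE 0.135) did not pass the test (edgeR adjusted p = 0.108; 0.0411 at -0.41 when control replicate 1 was left out). An exon of *SOX4* overlaps 168 bases of the non-coding gene *AL512380.2* on the opposite strand, which had 0 to 2 counts.

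In group D, the 3 genes did not move together: *SOX5* rose, *SOX13* nearly halved, and *SOX6* was close to silent. *SOX13*, a group D gene also studied in T cells and as an autoantigen, had 83.0, 85.9 and 78.3 CPM in control and 44.3, 44.1 and 44.6 CPM after *SOX2* siRNA. The siRNA libraries were almost equal and far below the control libraries, with a log2 fold change of -0.89 (SE 0.0450; edgeR adjusted p = 8.21e-11). Only 2.44% of all tested genes had a log2 fold change as low or lower. *SOX5*, which binds with *SOX6* to enhancers of cartilage genes, had 36.3, 38.4 and 36.6 CPM in control and 44.6, 47.3 and 43.9 CPM after *SOX2* siRNA. Each siRNA library was above each control library, and the log2 fold change was 0.29 (SE 0.0491; edgeR adjusted p = 2.46e-04). *SOX6* had 29, 18 and 26 counts in control and 16, 20 and 7 counts after *SOX2* siRNA, or 0.879, 0.718 and 0.899 against 0.530, 0.619 and 0.234 CPM. The libraries did not overlap once scaled for depth, yet the third siRNA library stood apart from the others. The log2 fold change of -0.84 (SE 0.328) did not pass the test (edgeR adjusted p = 0.0659); it was -0.54 without that library and -0.93 by limma-voom, where the adjusted p was 0.0466. Exons of *SOX6* overlap 219 bases of *C11orf58* on the opposite strand, a gene with 8047 to 10285 counts per library, and the labels do not state the use of strand, so the part of those reads in the low *SOX6* counts was not tested.

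In group E, all 3 genes rose. *SOX9*, the master regulator of cartilage and a driver of testis formation, was close in CPM to *SOX4* in control and above it after *SOX2* siRNA, with 102, 94.5 and 102 CPM in control and 145, 138 and 148 CPM after *SOX2* siRNA. The gap between the groups was larger than the spread within either, and the log2 fold change was 0.53 (SE 0.0422; edgeR adjusted p = 3.60e-08). *SOX9-AS1*, a non-coding gene annotated on the opposite strand around *SOX9* and not overlapping its exons, rose too, by a log2 fold change of 0.35 (SE 0.0936; edgeR adjusted p = 0.00969), with means of 7.17 ± 0.306 and 9.11 ± 0.786 CPM (SD, n = 3). *SOX10*, needed for neural crest, melanocytes and the glia that wrap axons, had 3.58, 2.71 and 3.11 CPM in control and 9.08, 10.1 and 8.5 CPM after *SOX2* siRNA. The groups were far apart, and this was the largest of the 9 log2 fold changes, at 1.54 (SE 0.119; edgeR adjusted p = 2.31e-08). *SOX8*, a partly redundant relative of both, had 58, 49 and 63 counts in control and 92, 118 and 100 after *SOX2* siRNA, from 1.96 ± 0.211 to 3.35 ± 0.301 CPM (SD, n = 3). It remained a minor transcript in both groups, with a log2 fold change of 0.77 (SE 0.159; edgeR adjusted p = 0.00133). Exons of *SOX10* overlap 89 bases of *POLR2F* on the opposite strand, 2.40% of the exon length of *SOX10*. *POLR2F* had 685 to 969 counts per library and a log2 fold change of 0.13 (edgeR adjusted p = 0.137).

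**Figure D2:**
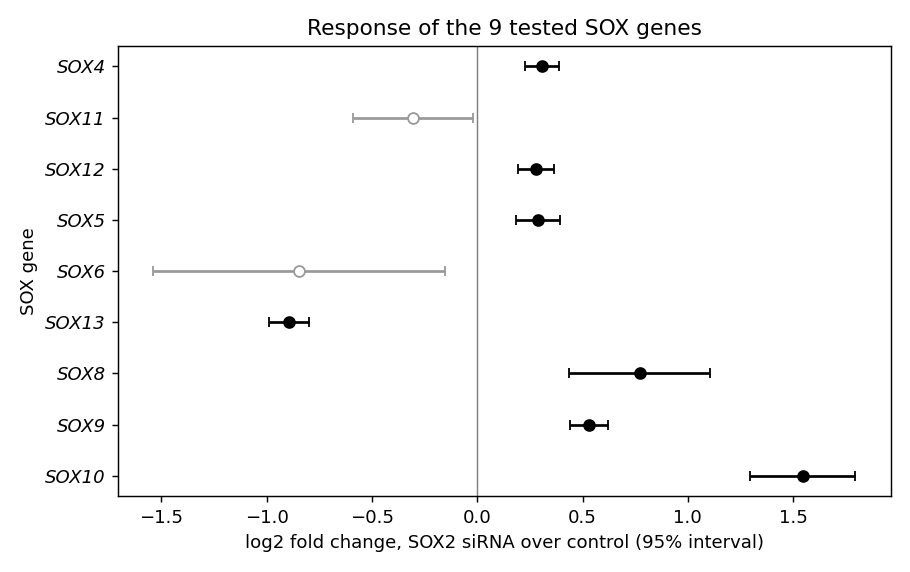
Log2 fold change (*SOX2* siRNA over control, edgeR) of the 9 tested SOX genes with 95% intervals, filled black where the adjusted p is under 0.05 and open grey where it is not. *SOX10* lies farthest to the right at 1.54 and *SOX13* farthest to the left at -0.89, with *SOX6* close to it at -0.84 and a wide interval.

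The group F member *SOX17* was not detectable at this depth. *SOX17*, which directs definitive endoderm and vessel formation, had 2, 0 and 1 counts in control and 0, 0 and 2 counts after *SOX2* siRNA. Each of the 6 values is under the floor of 3 counts, so no fold is given. Its group F relatives were also scarce: *SOX18* had at most 5 counts in a library, and *SOX7* went from 39, 40 and 31 to 63, 59 and 49 counts, a log2 fold change of 0.54 that did not pass the test (edgeR adjusted p = 0.0696). The value of *SOX7* is uncertain, since 39.4% of its exon length overlaps exons of *PINX1* on the same strand. The remaining relatives *SOX15* and *SOX30*, of groups of their own, had at most 7 and 5 counts.

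Whether genes of the same group responded differently was examined through the ratio of their counts within each library, which does not depend on library size. Of 9 within-group pairs, 6 had ratios that did not overlap between the groups. With 3 against 3 libraries the exact two-sided permutation p cannot go below 0.1, and it was 0.1 for these 6 (Benjamini-Hochberg adjusted p = 0.15). The share among pairs of other genes was not computed, so the count is a description only. Each of the 9 tested genes was itself without overlap, so ratios of genes that moved in opposite directions were bound to separate. Pairs of the same group share genes and are not independent. In group D the *SOX13* to *SOX5* log2 ratio went from 1.15 ± 0.0502 to -0.029 ± 0.0639 (SD, n = 3), so that counts of *SOX13*, over 2 times those of *SOX5* in control, came level with them. In group E the *SOX10* to *SOX9* log2 ratio went from -4.99 ± 0.143 to -3.97 ± 0.172 (SD, n = 3), a 2.03-fold shift towards *SOX10*. The *SOX10* to *SOX8* ratio shifted 1.73-fold towards *SOX10*. In group C the *SOX12* to *SOX4* log2 ratio was -0.41 ± 0.0679 in control and -0.44 ± 0.0236 after *SOX2* siRNA (SD, n = 3), and these overlapped (exact permutation p = 0.5, adjusted 0.562). The *SOX11* to *SOX4* ratio was 0.656 times its control value. *SOX9* to *SOX8* and *SOX13* to *SOX6* overlapped between the groups.

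To set the genes side by side, CPM was divided by annotated exon length in kilobases. In control libraries *SOX2* stood first at 102 ± 4.0 CPM per kb (SD, n = 3), followed by *SOX9* at 25.3 ± 1.14, *SOX4* at 17.7 ± 0.536, *SOX12* at 16.9 ± 0.563, *SOX13* at 11.1 ± 0.516 and *SOX5* at 3.55 ± 0.109 CPM per kb. *SOX10*, *SOX11* and *SOX8* were under 1 CPM per kb, and *SOX6* was at 0.0424 ± 0.00504. Ranges of neighbours in this order overlapped for *SOX4* and *SOX12* and for *SOX11* and *SOX8*. After *SOX2* siRNA *SOX9* came first at 36.6 ± 1.29 CPM per kb, and *SOX4* (21.9 ± 0.438), *SOX2* (20.9 ± 0.881) and *SOX12* (20.4 ± 0.346) followed with each overlapping the next. *SOX8* moved ahead of *SOX11*, at 0.755 ± 0.0679 against 0.428 ± 0.0206 CPM per kb, and the ranges of *SOX6* and *SOX17* overlapped at the foot of the order. The place of *SOX13* depends on which length is used: with its longest transcript it was at 23.0 in control and 12.4 CPM per kb after *SOX2* siRNA, between *SOX9* and *SOX4* in the first case and below *SOX12* in the second.

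The summed level of the 10 genes was 76.4 ± 1.47 CPM per kb in control and 93.0 ± 0.896 after *SOX2* siRNA (SD, n = 3), 1.22 times as high (exact two-sided permutation p = 0.1, the smallest possible here; 1.13 times with longest transcripts). Group E contributed most of the gain, going from 26.6 ± 1.24 to 39.9 ± 1.04 CPM per kb. Group C went from 35.1 ± 0.669 to 42.8 ± 0.701, and group D from 14.7 ± 0.591 to 10.3 ± 0.157 CPM per kb. The gain did not make up for the loss of *SOX2*: together, *SOX2* and the 10 genes stood at 178 ± 2.54 and 114 ± 0.618 CPM per kb. In control replicates 1 to 3, *SOX2* held 55.6%, 58.5% and 57.1% of this sum. After *SOX2* siRNA it held 18.0%, 19.2% and 17.8%. *SOX2* is the target of the siRNA, so a lower share was set by the design. The level of *SOX2* went from 102 to 20.9 CPM per kb, while the 10 genes went from 76.4 to 93.0. *SOX9* went from 14.2% ± 0.811 to 32.2% ± 1.21 of the sum, and *SOX10* from 0.475% ± 0.0721 to 2.18% ± 0.181 (SD, n = 3). *SOX2* is part of the sum, so the shares of the other genes gain from its loss. The level of *SOX9* rose 1.44-fold, less than its share. The share of *SOX11* went from 0.297% to 0.376% while its level went from 0.530 to 0.428 CPM per kb.

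**Figure D3:**
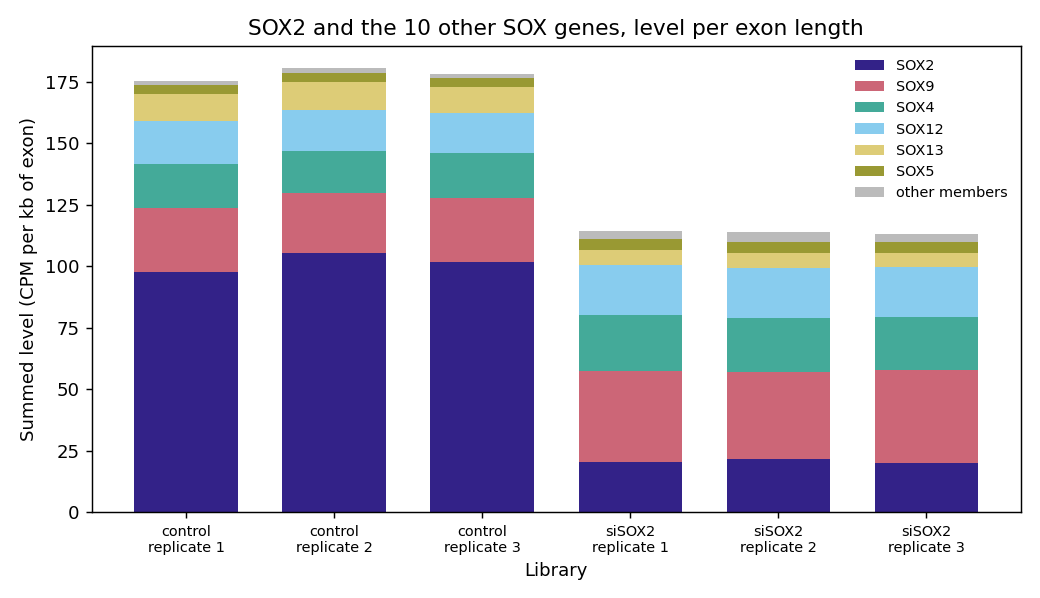
Stacked levels (CPM per kb of exon) of *SOX2*, the 5 most abundant of the 10 SOX genes and the other 5 summed, 1 bar per library. *SOX2* is the largest segment of each control bar, and *SOX9* is the largest segment of each *SOX2* siRNA bar.

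Promoters were compared for the short SOX recognition sequences ACAATG and ACAAAG, read on both strands (CATTGT and CTTTGT on the other), in RefSeq windows from 250 bases before to 50 after the annotated start (GRCh38.p14). An entry was found for 5 of the 10 genes. The windows of *SOX4*, *SOX12* and *SOX13* held neither sequence, the window of *SOX5* held ACAATG at 2 places, and 2 of the 5 windows of *SOX6* held a match. Over 35116 windows of the same length, 10.8% held ACAATG, 16.1% ACAAAG and 24.5% either of them, so a match is common and is given as a description only. Of the genes that passed the test, *SOX8*, *SOX9* and *SOX10* had no window to search. The *SOX5* stretch is printed because, among the genes that passed the test, it is from the 1 searched window with a match. It lies at chr12:24562602-24562701 on the minus strand (GRCh38), from 210 to 111 bases before the annotated start, with the matches in capitals:
SOX5: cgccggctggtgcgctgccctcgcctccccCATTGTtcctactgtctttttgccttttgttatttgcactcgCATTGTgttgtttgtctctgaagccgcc

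Genes known to be linked to each SOX group were listed by role and read from the same test, beside the 28.2% called among all tested genes; whether a SOX protein had a part in their changes was not tested. Cartilage genes controlled by *SOX9*, *SOX5* and *SOX6* were measurable for 11 of 16, and 4 rose and none fell. *COL2A1*, the main collagen of cartilage and a classic target of *SOX9*, had 199, 192 and 194 CPM in control and 548, 545 and 545 CPM after *SOX2* siRNA. The libraries within each group were nearly equal, and the log2 fold change was 1.48 (SE 0.0334; edgeR adjusted p = 2.26e-15). *MATN3*, a cartilage matrix protein, and *COL9A3* and *COL9A2*, chains of the collagen that coats type II fibrils, had log2 fold changes of 0.56, 0.45 and 0.42 (edgeR adjusted p = 7.33e-06, 2.51e-05 and 3.91e-05). The other 7 tested genes did not pass the test. Among them *COL11A1*, a collagen chain of the same fibrils, was second in level on the list, with 120 ± 7.01 CPM in control and 167 ± 25.6 after *SOX2* siRNA (SD, n = 3) and a log2 fold change of 0.48 (edgeR adjusted p = 0.0599). *WWP2*, a ubiquitin ligase gene, was at 45.5 ± 2.29 and 47.7 ± 0.704 CPM (SD, n = 3). *ACAN* and *HAPLN1*, which form the aggrecan network of mature cartilage, had at most 7 and 2 counts in a library. The median log2 fold change of the 11 was 0.42, with 8 positive and 3 negative values. The lowest was that of *CNMD*, a gene at 8 to 19 counts per library, at -0.85 (edgeR adjusted p = 0.0809).

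Neural crest and glial genes linked to *SOX10* were measurable for 11 of 18, of which 5 rose and 2 fell, with a median log2 fold change of 0.45. Summed over the 18, the level was 753 to 767 CPM in control and 577 to 601 CPM after *SOX2* siRNA. The largest part of this sum was *EDNRB*, which fell, while 8 of the 11 log2 fold changes were positive and 3 negative. The value of *MIA*, among the 5 that rose, is uncertain, since 60.9% of its exon length overlaps exons of *MIA-RAB4B* on the same strand. *SNAI2*, a repressor that marks migrating crest, rose by a log2 fold change of 1.49 (edgeR adjusted p = 1.36e-09), with means of 4.57 ± 0.220 CPM in control and 12.8 ± 0.825 after *SOX2* siRNA (SD, n = 3). *ERBB3*, the neuregulin receptor of crest and Schwann cells, rose by a log2 fold change of 0.56 (edgeR adjusted p = 2.03e-08). *EDNRB*, the endothelin receptor of melanocyte and enteric precursors, went the other way, with 366 ± 12 CPM in control and 188 ± 7.03 after *SOX2* siRNA (SD, n = 3) and a log2 fold change of -0.96 (edgeR adjusted p = 3.95e-12). The second gene that fell was *TFAP2A*, an early crest specifier, at -0.43 (edgeR adjusted p = 4.07e-08). The melanocyte genes *TYR* and *DCT* had 0 and at most 4 counts in a library.

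Neuronal genes linked to group C were mostly silent, with 5 of 15 measurable. *TUBB3*, a neuronal tubulin, and *TEAD2*, a Hippo pathway factor known as a group C target, rose by log2 fold changes of 0.74 and 0.26 (edgeR adjusted p = 8.23e-06 and 2.52e-04), as did *STMN1* by 0.21. *MAP2* and *GAP43*, proteins of dendrites and growing axons, fell, with log2 fold changes of -0.91 and -0.39 (edgeR adjusted p = 2.73e-09 and 1.43e-05). The value of *TUBB3* is uncertain because 35.8% of its exon length overlaps exons of *AC092143.1* on the same strand. *DCX*, *NEUROD1* and *NEUROG1*, genes of early steps of neuron formation, had at most 5, 0 and 0 counts in a library.

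Endoderm and germ cell genes that accompany *SOX17* changed although *SOX17* stayed under the floor. Of 19 listed, 11 were measurable, 6 rose and 1 fell. *EOMES*, *CER1* and *MIXL1*, genes of the primitive streak and early endoderm, had log2 fold changes of 2.92, 2.51 and 2.26 (edgeR adjusted p = 2.01e-14, 5.39e-13 and 1.99e-09). *TFAP2C*, which acts beside *SOX17* in germ cell precursors, fell by 1.19 on the log2 scale (edgeR adjusted p = 1.52e-10). *FOXA2*, *GSC* and *HHEX*, regulators of definitive endoderm, had at most 13, 2 and 5 counts in a library. Libraries of the same group differed for *FOXA2*, with 13, 2 and 1 counts in control and 13, 1 and 9 after *SOX2* siRNA. They also differed for *GATA6* (81, 51 and 31 against 101, 36 and 68 counts), which did not pass the test (edgeR adjusted p = 0.763). Control replicate 3 and *SOX2* siRNA replicate 2 were lowest for both genes, as for *LYZ* below, and the cause was not tested. Endothelial markers, the setting in which group F is known from vessels, summed to 162 to 168 CPM in control and 141 to 142 CPM after *SOX2* siRNA. Of 7 tested markers 2 rose and 5 fell: *PECAM1*, *CDH5* and *KDR* had log2 fold changes of -0.55, -0.71 and -0.30, *FLT1* of 0.36, and *TEK*, second in level, of -0.14 (edgeR adjusted p = 2.69e-08, 5.49e-05, 0.00348, 1.52e-04 and 0.0455). The defining factor *ERG* and the marker *EMCN* had at most 2 and 3 counts. Their part in the SOX values was not tested.

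Most of the 8 blood cell markers were near absent, with *PTPRC*, *CD3E* and *HBB* at 3, 1 and 0 counts or fewer, but *LYZ* was not. Summed over the 8, the level was 2.77 to 15.2 CPM in control and 2.41 to 18.9 CPM after *SOX2* siRNA. Of 2 tested, *CD14* rose within a low range (edgeR adjusted p = 0.0428), with means of 0.363 ± 0.0545 and 0.672 ± 0.0468 CPM (SD, n = 3), and *LYZ*, which did not pass the test (edgeR adjusted p = 0.986), differed between libraries of the same group, with 481, 348 and 61 counts in control and 542, 48 and 364 after *SOX2* siRNA.

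**Figure D4:**
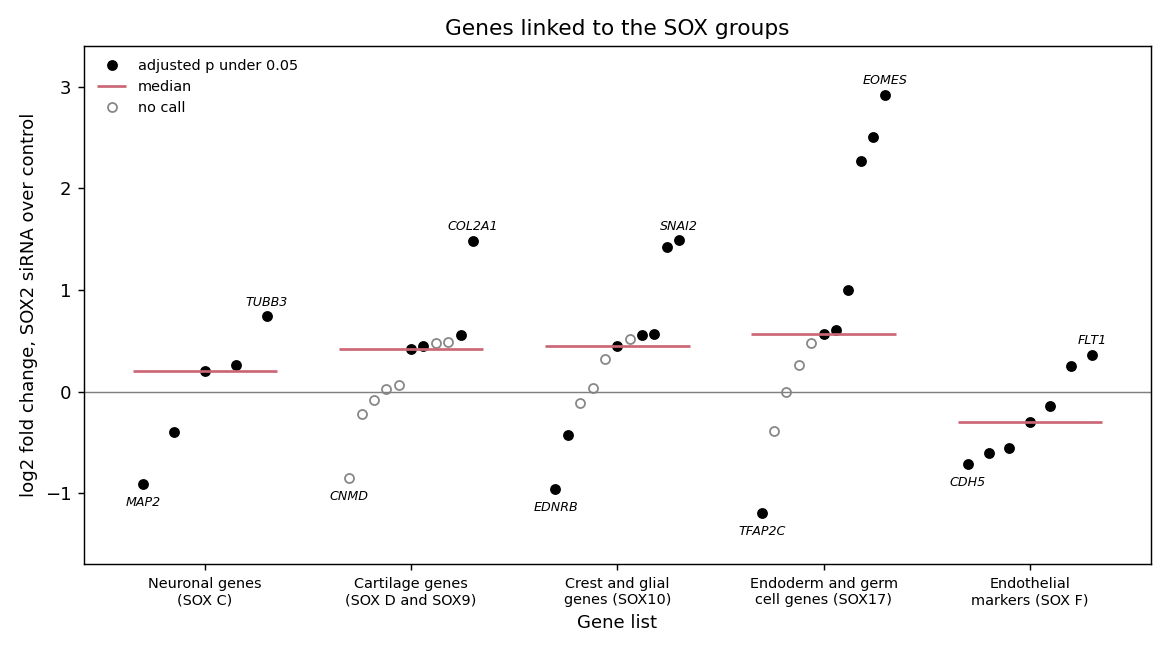
Log2 fold change (*SOX2* siRNA over control) of the tested genes of 5 lists, ordered within each list, with filled points for an adjusted p under 0.05, open points otherwise and a red line at the list median. *COL2A1* at 1.48, *SNAI2* at 1.49 and *EOMES* at 2.92 lead the cartilage, crest and endoderm lists, and the endothelial list has its median at -0.30.

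For the 4 SOX genes that passed the test with a log2 fold change of at least 0.5 in size, the genes whose 6 library values ran closest to theirs were sought among 12112 other genes of average log2 CPM 2 or more, by Euclidean distance between log2 CPM values centred over the 6 libraries. Nearest to *SOX9* were *ANKRD33B* and *TOB1* (distances 0.0519 and 0.0522; log2 fold changes 0.53 and 0.52). Nearest to *SOX10* were *ALPK2* and *TP53I11* (0.211 and 0.256; log2 fold changes 1.53 and 1.5). *LRIG3* and *HEY2* ran closest to *SOX8* (0.193 and 0.194; log2 fold changes 0.77 and 0.72), and *FKBP3* and *CACHD1* to *SOX13* (0.101 and 0.111; log2 fold changes -0.93 and -0.84). With 6 libraries in 2 groups, such likeness reflects mainly the size of the group difference.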

How the data were processed

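RNA was extracted with Trizol and made into libraries with the KAPA mRNA HyperPrep kit, per the labels' protocols. The deposited table holds raw counts per gene symbol, 1 column for each of the 6 libraries, and columns were matched to libraries by the identifier in each description. The submitters' processing notes name bcl2fastq 2.20.0, STAR 2.7.3a, Salmon 0.14.1, DESeq2 1.28.1 and build GRCh38.p13, without saying which tool made the counts; the annotation and the use of strand are not given in the sources used here. Totals of 25152313 to 32753184 counts set the precision; floors of 3 counts cover counting error only, since reads had no molecular identifiers.

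Genes kept by filterByExpr (minimum count 10) were scaled by TMM and tested with edgeR 4.0.16 (glmQLFit with robust=TRUE, glmQLFTest; R 4.3.3), Benjamini-Hochberg adjustment over 17592 genes, threshold 0.05. Intervals are 95%. Ratios of 2 genes used a prior count of 0.5 and exact permutation tests (scipy 1.17.1). Exon lengths, overlaps and transcript sequences came from GENCODE 29 (GRCh38), which need not be the authors' annotation; promoters came from RefSeq. Alternatives were other scalings and filters, DESeq2 1.42.0, limma-voom (limma 3.58.1), robust=FALSE, a replicate block and each library left out. On simulated data with 200 changed genes and 17271 tested, edgeR recovered 38% of 1.25-fold, 68% of 1.5-fold and 82% of 2-fold changes. In that simulation 12.3% of its calls were false. In the real data 28.2% of genes were called, far more than were changed in the simulation, so these shares need not hold there.

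The 10 genes and the lists were chosen with earlier results of these data known. Named genes were the 10, *SOX2*, the 4 other SOX genes outside group B, the 4 called genes of smallest p in each list (*SOX21* and *SOX3* from that of group B), the 2 most abundant of each marker list, and the nearest genes by distance. Further genes named at low counts, genes named for overlapping exons, *POU5F1*, *SALL4*, *COL11A1*, *WWP2*, *STMN1*, *GATA6* and *SOX9-AS1* were chosen after their values were seen. For the crest and glial list, 2 genes are not reported here and are left out of its counts.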

Additional observations from a re-analysis of the deposited data

How the results depend on the processing

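The 9 tested SOX genes kept their direction under each of 134 values from the alternatives, and 132 stayed on the same side of the threshold. The 2 others were gains of a call: *SOX6* by limma-voom (-0.932, adjusted p = 0.0466, all settings giving 0.0466 to 0.261) and *SOX11* without control replicate 1 (-0.410, adjusted p = 0.0411, all settings giving 0.0411 to 0.352); the cause was not tested. *SOX6* is not tested when 10 counts are required in every library. The number of genes called ranged from 3760 to 5212, and upper-quartile scaling changed the split, with 45.8% of calls higher in place of 52.4%. Leaving out 1 library gave log2 fold changes of 0.283 to 0.325 for *SOX4*, -0.410 to -0.209 for *SOX11*, 0.257 to 0.306 for *SOX12*, 0.252 to 0.313 for *SOX5*, -1.12 to -0.538 for *SOX6*, -0.928 to -0.863 for *SOX13*, 0.693 to 0.856 for *SOX8*, 0.495 to 0.556 for *SOX9* and 1.46 to 1.66 for *SOX10*.

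The fall in the *SOX2* share of the summed level was -38.7 percentage points, and it was -36.0 with longest transcripts, -37.0 over all SOX genes and -39.5 to -38.0 without 1 library. The *SOX13* to *SOX6* ratio, not called, changed sign with the library left out (-0.373 to 0.302). Titles number the libraries 1 to 3 in both groups. Deviations of same-numbered libraries correlated at 0.0868, -0.0377 and -0.0311, and those of differently numbered libraries at -0.12 to 0.155. With 3 libraries per group, these correlations cannot settle whether the numbers mark a shared culture or day. With the replicate block 5177 genes were called, 4829 of them among the 4964, and the block changed the call of none of the 9 genes (*SOX11* -0.303, adjusted p = 0.0952; *SOX6* -0.877, adjusted p = 0.0715). Depth limits *SOX6* and *SOX17* most.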
